A study of Mus musculus with 43 samples.

Results

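Ly6Chi and Ly6Clo mononuclear cells sorted from the lungs of newborn mice kept in high oxygen were compared, 5 libraries of each, which are 10 of the 43 libraries of the series. The libraries were taken by their labelled source, hyperoxic Ly6C hi cells or hyperoxic Ly6C lo cells, and every expressed gene was compared between them. C57BL/6 pups from mixed litters were assigned at random within hours of birth to a fraction of inspired oxygen of 0.9 (hyperoxia) or to air (normoxia), and their lungs were perfused and digested after 1.5 days. Flow cytometry then separated Ly6Chi cells (high Ly6C, low CD11c) from Ly6Clo cells (low Ly6C, high CD11c), alongside dendritic cells and Siglec-F high alveolar macrophages. Cells went straight into lysis buffer for SMART-Seq v4 amplification and Nextera XT libraries. Each population has 2 libraries of litter 93 (replicates 1 and 2), 1 of litter 100 (replicate 3) and 2 of litter 108 (replicates 4 and 5). The 11 normoxic libraries of the same gates, 6 Ly6Chi and 5 Ly6Clo, served to ask whether the difference between the populations depends on oxygen. The labels tie no library to a pup, say nothing of pooling and give no sex, so p-values measure the spread between libraries.

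Ly6Chi cells of the mouse are classical monocytes in blood: they leave the bone marrow through CCR2 and enter injured tissue, where they can become macrophages or dendritic cells. A Ly6C low gate can hold patrolling monocytes, interstitial macrophages and macrophages on the way to the alveolar fate, which is set in the first days of life under GM-CSF, TGF-beta and the nuclear receptor PPAR-gamma. Alveolar macrophages clear surfactant and cell debris, so lipid handling and lysosomal genes mark them.

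The gates were read first in the genes of the sorted proteins, which are no finding. Ly6c2, which encodes Ly6C2, stood at 468, 496, 916, 381 and 387 CPM (counts in a library scaled to 1000000) in Ly6Chi replicates 1 to 5 and at 3.16, 11.6, 9.50, 6.46 and 12.4 CPM in Ly6Clo replicates 1 to 5, the order used for every list of values here. Itgax, which encodes CD11c, stood at 3.37, 5.08, 25.9, 11.5 and 9.67 CPM in Ly6Chi and at 179, 198, 287, 222 and 234 CPM in Ly6Clo. Both genes separated all 10 libraries as labelled. The neighbouring Ly6c1 did not: it had 24.7, 3.81, 93.1, 41.7 and 28.6 CPM against 26.9, 11.6, 4.75, 14.9 and 1.13 CPM (adjusted p = 0.29), and as Ly6c1 and Ly6c2 are near-identical, their reads may have been split between them. Siglecf, the gate of the alveolar macrophage sort, had 5.62, 8.25, 0, 1.38 and 6.45 CPM in Ly6Chi and 9.48, 17.4, 6.33, 14.4 and 6.76 CPM in Ly6Clo, beside a mean of 85.3 CPM in the hyperoxic alveolar macrophage libraries.

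Library totals were 1026528 to 2298828 counts in Ly6Chi and 647844 to 1963284 in Ly6Clo, a difference within the spread (exact two-sided permutation test, p = 0.2143, where 0.00794 is the smallest p that 5 against 5 allows). The first principal component, with 42.6% of the variance, separated the populations, and the second, with 24.2%, set both replicate 3 libraries of litter 100 (77.5 in Ly6Clo and 81.1 in Ly6Chi) apart from the other 8 (-37.9 to 4.66). Cxcl9 and Cxcl10, interferon-inducible chemokines chosen after their values were seen, show the same split. Cxcl9 had 148 and 196 CPM in the Ly6Chi and Ly6Clo libraries of litter 100 and at most 19.2 CPM in any other, and Cxcl10 had 399 and 220 CPM against at most 42.4 CPM. Every fold change below is within litter, and results that turn on litter 100 are given without it. Libraries of the same number were alike in Y-linked RNA in both populations (summed over 4 genes, 0, 346, 273, 420 and 0 CPM in Ly6Chi and 0, 307, 269, 403 and 0.564 CPM in Ly6Clo). Libraries of the same number may therefore share a pup, which the labels do not say, and the tests do not pair them. The part of sex in the differences between populations was not tested.

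**Figure D1:**
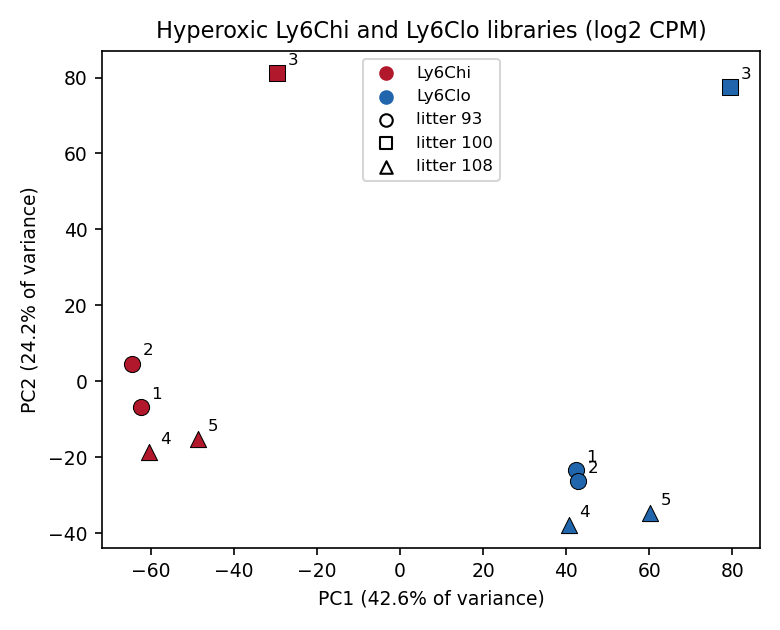
First (x axis) and second (y axis) principal components of log2 CPM over the 10 hyperoxic libraries, labelled by replicate number, with colour for the population and marker shape for the litter. Ly6Chi libraries lie at -64.4 to -29.6 and Ly6Clo libraries at 40.7 to 79.4 on the first component, and both litter 100 libraries lie high on the second.

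Of 10638 genes with enough counts to test, 3373 (31.7%) differed between the populations at an adjusted p under 0.05 (edgeR's quasi-likelihood test with litter in the model, Benjamini-Hochberg over all genes tested). Ly6Chi was higher for 1704 (16.0%) and lower for 1669 (15.7%). The difference was at least 2-fold for 1712 genes (16.1%), 821 higher (7.72%) and 891 lower (8.38%), and at least 4-fold for 297 higher and 357 lower. All 5 Ly6Chi libraries lay above all 5 Ly6Clo libraries in 757 of the genes tested (7.12%), called or not, and below them in 730 (6.86%). Within each litter taken alone, 3212 of the 3373 (95.2%) had the same sign in all 3. As the genes were called from these same libraries, that share is no independent check. In sorted bulk cells a lower level can come from fewer cells of a type or from less of the RNA in each cell, and these cannot be told apart. A gene that 1 population hardly expressed could pass the filter on low counts through the other population alone, so counts of called list members are read as descriptions beside those shares.

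**Figure D2:**
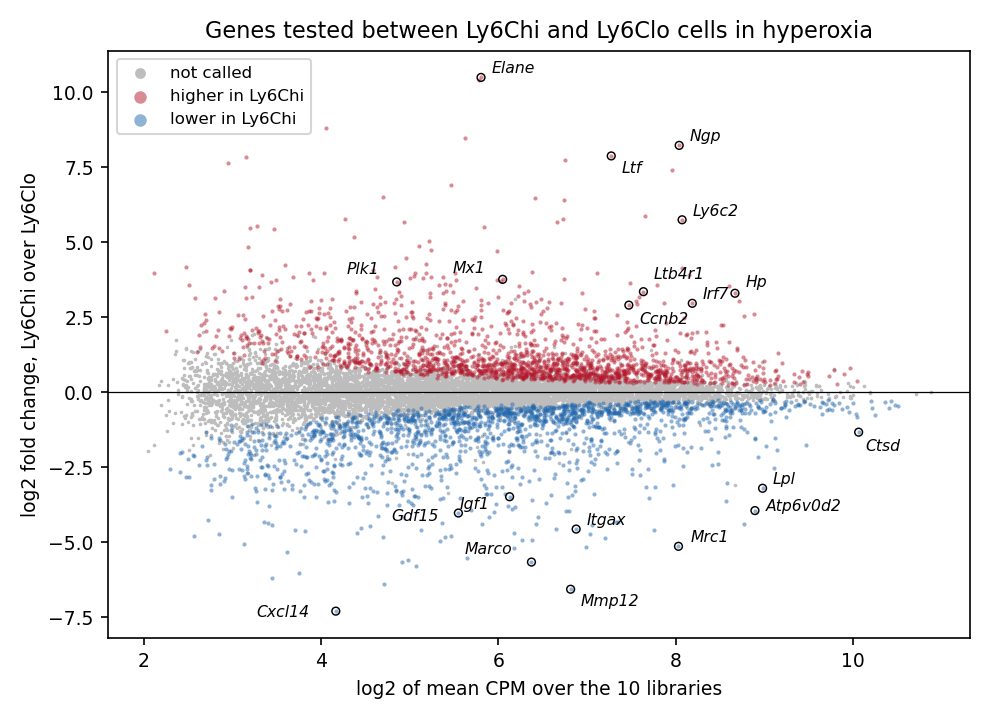
Log2 fold change of Ly6Chi over Ly6Clo cells in hyperoxia (y axis) against the log2 of the mean CPM over the 10 libraries (x axis) for the 10638 genes tested; red and blue points passed the adjusted p of 0.05 and circled genes are named. The 297 and 357 genes past 4-fold include Lpl, while the more abundant Ctsd is below 4-fold. For genes at 0 in 1 population, such as Elane, the plotted fold is a fitted value.

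The genes with the widest gap on the Ly6Chi side encode neutrophil granule proteins, which granulocyte and monocyte precursors make in the bone marrow. Elane, neutrophil elastase, had 91.5, 60.3, 116, 134 and 158 CPM in Ly6Chi and 0 in every Ly6Clo library, so it was at least 259-fold higher against a floor of 3 counts over the 5 Ly6Clo libraries. Prtn3, proteinase 3, had 62.3, 57.1, 158, 100 and 174 CPM against 0 in every Ly6Clo library, at least 245-fold higher. Neither gene left a single count on the Ly6Clo side. Ngp, neutrophilic granule protein, had 574, 613, 326, 504 and 606 CPM against 0, 1.65, 0, 3.48 and 1.69 CPM (log2 fold change 8.23 ± 0.30 SE). Ltf, lactoferrin of the secondary granules, had 356, 319, 35.2, 377 and 452 CPM against 0.79, 1.65, 3.17, 1.49 and 0.564 CPM (7.88 ± 0.38). The Ly6Chi library of litter 100 was the low one for Ltf and still above every Ly6Clo library. Camp, the cathelicidin precursor, had 222, 227, 256, 167 and 206 CPM against 0, 0.827, 0, 1.99 and 0.564 CPM. Cebpe, the transcription factor of secondary granule genes, followed at 25.8, 15.9, 12.4, 22.5 and 11.5 CPM against 0, 0, 0, 1.49 and 0.564 CPM.

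Of the 18 genes in the neutrophil and granule list 13 passed the filter and 13 were called higher, with a median log2 fold change of 5.69, also with Elane and Prtn3 at their bounds (0.02 over all genes tested), and in normoxia the median of the same genes was 4.43. The smallest fold among them was that of S100a8, a calprotectin subunit (0.82 ± 0.14). Its partner S100a9 had 318, 336, 759, 250 and 320 CPM against 0, 3.31, 0, 18.4 and 1.69 CPM (5.87 ± 0.69, and 7.89 without Ly6Clo replicate 4). The summed level of the list was 3232 to 3952 CPM in Ly6Chi and 310.6 to 727 CPM in Ly6Clo. The other 5 members, Ly6g, Retnlg, Mmp9, Ctsg and Cd177, did not pass the filter. Ly6g, the defining surface marker of mature neutrophils, had 10.7, 2.54, 0, 4.13 and 0.461 CPM in Ly6Chi and 0 in Ly6Clo, and Retnlg had 4.49, 30.5, 10.3, 34.9 and 76.9 CPM against 0, 0, 0, 1.49 and 0.564 CPM. Cxcr2, the chemokine receptor of neutrophils, had 26.9, 33.6, 15.5, 18.3 and 30.4 CPM against 12.6, 9.09, 1.58, 5.96 and 0 CPM (2.20 ± 0.56, edgeR adjusted p = 0.01). The part of neutrophils or their precursors in the granule genes was not tested.

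Classical monocyte markers lay on the Ly6Chi side: of 17 tested, 13 were higher and 1 was lower (0 lower without Ly6Chi replicate 1 or Ly6Clo replicate 2), with a median of 2.56. Fcnb, ficolin B of the lectin complement pathway, had 226, 166, 104, 230 and 266 CPM against 2.37, 6.61, 6.33, 3.48 and 2.25 CPM (5.67 ± 0.31). F13a1, the factor XIII A chain, had 970, 1002, 324, 842 and 576 CPM against 212, 133, 26.9, 102 and 18 CPM (3.06 ± 0.46). Its ranges do not overlap, though both populations have the gene. Hp, haptoglobin, had 708, 767, 877, 649 and 704 CPM against 55.3, 105, 55.4, 83.9 and 60.9 CPM (3.31 ± 0.19). The matrix proteins thrombospondin 1 (Thbs1, 3.53 ± 0.27) and versican (Vcan, 2.99 ± 0.16) were higher too.

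Markers shared by both populations stand beside these. Ccr2, the receptor that draws monocytes into tissue, had 1084, 1186, 1059, 1050 and 1098 CPM in Ly6Chi and 1039, 805, 700, 548 and 231 CPM in Ly6Clo (0.78 ± 0.29, edgeR adjusted p = 0.072). Cx3cr1, the fractalkine receptor, had 259, 280, 116, 160 and 183 CPM against 268, 331, 196, 166 and 25.9 CPM (0.09, edgeR adjusted p = 0.91). In both genes replicate 5 was far below the other Ly6Clo libraries. The non-classical monocyte list split, with 8 of 15 higher (5 without the litter term and 3 without litter 93) and 3 lower. Its higher members included Nr4a1, the nuclear receptor on which patrolling monocytes depend, with 441, 503, 79.6, 240 and 118 CPM against 108, 57.9, 25.3, 24.3 and 18 CPM (2.60 ± 0.29), and Spn, the sialophorin CD43 (1.75 ± 0.38). Fabp4, a fatty acid binding protein that alveolar macrophages also make, was its most strongly lower member (fell by 5.17 on the log2 scale). Nr4a1 also belongs to the list of immediate early genes. Of 18 immediate early genes tested 8 were higher (2 without the litter term) and 1 was lower (2 without Ly6Chi replicate 2).

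**Figure D3:**
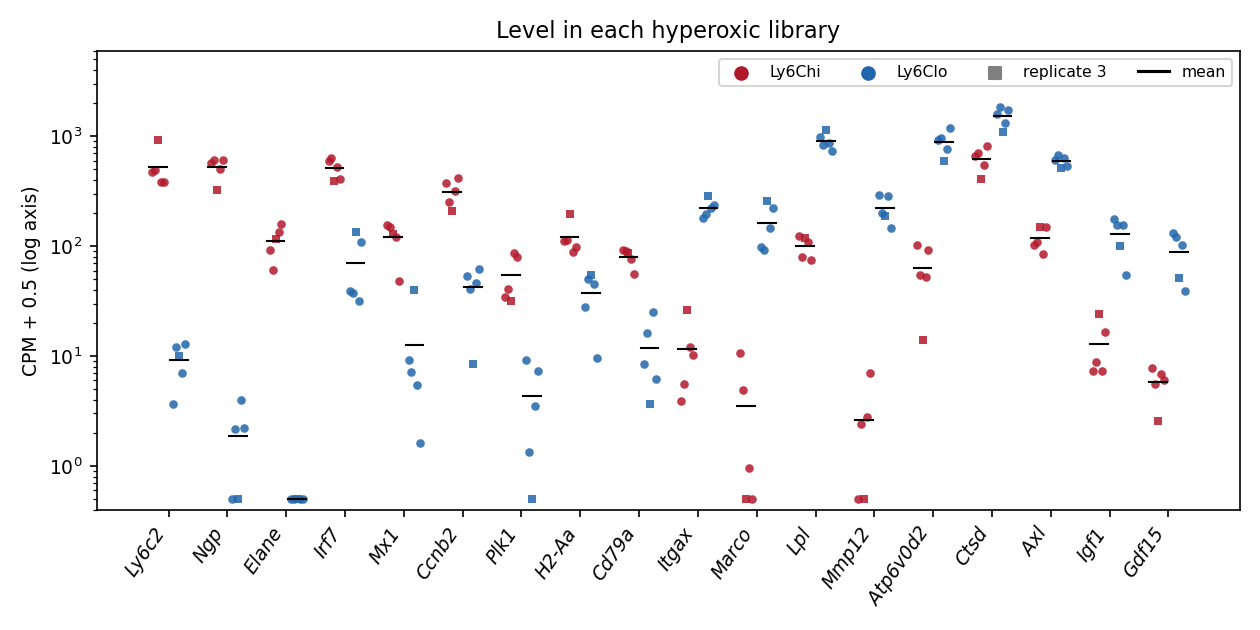
CPM of 18 genes in each hyperoxic library, plotted as CPM + 0.5 on a log axis, with 1 point a library, a square for replicate 3 (litter 100) and a bar at the mean of 5. From Ly6c2 to Cd79a the Ly6Chi points lie above the Ly6Clo points, and from Itgax to Gdf15 below them, with Elane at 0 in all 5 Ly6Clo libraries.

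Genes of dividing cells were higher in Ly6Chi. Of 24 mitosis genes tested 23 were higher and 0 lower, with a median of 2.32, and of 21 DNA replication genes 17 were higher and 0 lower, with a median of 1.25. Ccnb2, cyclin B2, had 372, 251, 209, 320 and 414 CPM against 52.9, 40.5, 7.92, 45.7 and 60.9 CPM (2.91 ± 0.23). Plk1, the mitotic kinase, had 34.2, 40.6, 31.0, 85.3 and 78.7 CPM against 8.69, 0.827, 0, 2.98 and 6.76 CPM (3.68 ± 0.47). Neither gene overlapped between the populations, and in both the lowest Ly6Clo library was that of litter 100. Mki67, the proliferation antigen Ki-67, had 130, 131, 131, 186 and 135 CPM against 81.4, 44.6, 61.8, 58.6 and 45.1 CPM (1.26 ± 0.21), so the gene was also present on the Ly6Clo side. Mcm5, of the replicative helicase, had 108, 142, 76.5, 140 and 136 CPM against 36.4, 34.7, 33.3, 25.8 and 14.7 CPM (2.07 ± 0.26). Cdc45, a partner of that helicase, was higher by 2.37 ± 0.28 and Cdc6, a licensing factor, by 2.23 ± 0.50. Without litter 108 only 9 of the replication genes stayed past the threshold.

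The mean level of the mitosis genes (log2 CPM) was 6.37 ± 0.55 SD in Ly6Chi and 3.80 ± 0.80 in Ly6Clo in hyperoxia (n = 5 each), beside 6.16 and 4.78 in normoxia. The median fold of the list was 1.14 in normoxia. In the test of the difference between oxygen conditions 0 of its genes were called, and 12 of 24 had an unadjusted p under 0.05. Over all genes in that test 447 of 11721 had such a p.

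Type I interferon stimulated genes were higher in Ly6Chi in 25 of 29 tested, with 0 lower and a median of 1.91. Irf7, the factor that amplifies the response, had 600, 638, 392, 525 and 409 CPM against 38.7, 37.2, 133, 31.3 and 108 CPM (2.97 ± 0.45). Mx1, an antiviral GTPase, had 156, 148, 129, 120 and 47.4 CPM against 8.69, 6.61, 39.6, 4.96 and 1.13 CPM (3.77 ± 0.53, and 4.45 without Ly6Clo replicate 3). Neither overlapped, and both were raised in the Ly6Clo library of litter 100. Cmpk2, a mitochondrial nucleotide kinase, had 122, 132, 119, 122 and 70.9 CPM against 0.79, 6.61, 50.7, 0.496 and 9.02 CPM (3.76 ± 0.72, and 4.66 without Ly6Clo replicate 3). Isg15, the ubiquitin-like modifier, had 83.1, 82.5, 279, 43.6 and 35.0 CPM against 3.16, 6.61, 120, 5.46 and 19.7 CPM (2.24 ± 0.47). Its ranges overlap only through litter 100, where both populations were high. Ifnar1, a chain of the type I receptor, was higher by 1.07 ± 0.18. The list held 25 calls without litter 100, 16 without the litter term and 10 without litter 93.

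Since these genes moved together, their promoters were read for the interferon-stimulated response element, searched as GAAANNGAA on both strands from 250 bases before to 50 after the start (RefSeq, build GRCm38.p6). It was found in 8.57% of 27025 promoters and in 7.57% of the 7974 belonging to tested genes. Among genes higher in Ly6Chi 9.74% held it (127 of 1304 with a promoter), and among genes lower 6.37% (81 of 1271). Of the interferon genes called higher, 9 of 18 with a promoter held it (50%). The stretches that hold the matches are shown for the 5 interferon genes with a match before the start and the largest folds, 5′ to 3′ on the strand of the gene, with matches on either strand in capitals; overlapping matches run together. A match is a string of letters and says nothing of binding.
Oas3, chr5:120777690-120777764, minus strand: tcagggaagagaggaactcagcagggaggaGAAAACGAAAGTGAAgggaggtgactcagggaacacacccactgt
Ifit3, chr19:34583344-34583465, plus strand: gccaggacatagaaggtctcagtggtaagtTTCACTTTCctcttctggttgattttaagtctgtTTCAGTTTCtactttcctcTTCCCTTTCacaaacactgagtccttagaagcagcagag
Cd274, chr19:29367332-29367400, plus strand: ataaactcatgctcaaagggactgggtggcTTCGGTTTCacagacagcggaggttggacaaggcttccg
Isg15, chr4:156200846-156200926, minus strand: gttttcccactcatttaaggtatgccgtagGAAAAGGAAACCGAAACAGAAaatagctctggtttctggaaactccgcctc
Ifit1, chr19:34640750-34640843, plus strand: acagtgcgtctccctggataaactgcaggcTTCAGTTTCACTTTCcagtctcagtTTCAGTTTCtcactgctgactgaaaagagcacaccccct

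Not every gene with the element lay on the Ly6Chi side. Oas3 (3.60 ± 0.51), Ifit3 (2.39 ± 0.38), Isg15 and Ifit1 (2.11 ± 0.50) were higher in Ly6Chi. Cd274, the checkpoint ligand PD-L1, had 31.4, 16.5, 217, 48.1 and 191 CPM in Ly6Chi and 265, 268, 453, 266 and 581 CPM in Ly6Clo. It fell by 2.28 ± 0.52 on the log2 scale from Ly6Clo to Ly6Chi (edgeR adjusted p = 0.0115, and 0.0512 without Ly6Clo replicate 5). Replicates 3 and 5 were the high ones in both populations.

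The title of the series names interferon gamma, whose pathway was read next. Ifng itself had 24.8 CPM in the Ly6Chi library of litter 100, 1.84 CPM in Ly6Chi replicate 5 and 0 in the other 8 libraries, too few counts to test. Ifngr2, a chain of its receptor, had 332, 368, 322, 309 and 330 CPM against 197, 249, 188, 206 and 270 CPM (0.55 ± 0.12, edgeR adjusted p = 0.0036), with no overlap. Ifngr1, the other chain, was higher by 0.54 ± 0.12 and the receptor kinase Jak2 by 0.55 ± 0.13. With 8 genes of the pathway tested, 3 were higher (1 without the litter term or without litter 93) and 0 lower. Of its 15 target genes tested, 4 were higher and 2 lower, but without Ly6Clo replicate 5 the counts were 9 and 1, and without the litter term or litter 93 they were 2 and 1. DESeq2 and limma voom each called 7 higher. Gbp9, a guanylate-binding GTPase, had 102, 134, 148, 165 and 133 CPM against 50.6, 43.8, 80.8, 41.7 and 31.6 CPM (1.49 ± 0.21), while its relative Gbp8 had 16.8, 10.2, 153, 17.4 and 57.6 CPM against 135, 130, 323, 150 and 181 CPM (-2.34 ± 0.38). The transcription factor Irf8 was higher by 0.71 ± 0.15.

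Among receptors for growth factors and cytokines, 12 of 22 tested were higher in Ly6Chi and 5 lower. The higher count was 7 without Ly6Clo replicate 1 or without litter 108, 5 without the litter term and 4 without litter 93, and the lower count was 2 in the last 2 of these. Csf3r, the G-CSF receptor, had 270, 325, 153, 301 and 238 CPM against 81.4, 78.5, 45.9, 83.9 and 40.0 CPM (1.93 ± 0.20). Il1r2, the decoy receptor for interleukin 1, was higher by 2.55 ± 0.55 (1.96 without Ly6Chi replicate 5). Tgfbr2, a TGF-beta receptor, went the other way with 69.6, 64.1, 50.7, 60.1 and 46.0 CPM against 171, 217, 177, 208 and 235 CPM (-1.83 ± 0.15). The groups stayed apart in both Csf3r and Tgfbr2. Ltb4r1, the leukotriene B4 receptor, had 404, 432, 230, 368 and 374 CPM against 49.0, 61.2, 9.50, 28.3 and 32.7 CPM (3.36 ± 0.19). Itgb7, the beta 7 integrin, was higher by 3.65 ± 0.33 and Tlr1, a Toll-like receptor, by 1.50 ± 0.36. Mefv, which encodes the inflammasome sensor pyrin, had 73.5, 88.2, 126, 77.5 and 71.8 CPM against 0, 0, 4.75, 0 and 0.564 CPM. Of 12 inflammasome genes tested 2 were higher and 1 lower (0 lower without Ly6Chi replicate 1 or 4 or Ly6Clo replicate 1 or 2, and 2 without Ly6Chi replicate 2).

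The myeloid transcription factors split evenly, with 12 of 34 higher and 12 lower. Nfe2 had 450, 465, 307, 431 and 461 CPM against 106, 136, 61.8, 148 and 75.5 CPM (1.98 ± 0.18), and Klf2, which keeps leukocytes quiescent and circulating, had 312, 328, 329, 259 and 201 CPM against 82.2, 82.7, 90.3, 62.1 and 62.6 CPM (1.88 ± 0.12). Pparg, the regulator of alveolar macrophage identity, had 103, 52.0, 15.5, 74.8 and 101 CPM against 261, 303, 93.5, 277 and 336 CPM (-1.96 ± 0.19). Its litter 100 libraries were low in both populations, so the ranges overlap there although each litter shows the gap. Bhlhe41, a repressor also tied to that identity, had 4.49, 1.27, 19.6, 2.29 and 2.76 CPM against 72.7, 81.0, 315, 96.8 and 176 CPM (-4.90 ± 0.33). Egr2, an early growth response factor, had 2.25, 3.17, 1.03, 0 and 7.37 CPM against 75.9, 67.0, 98.2, 70.5 and 98.1 CPM (-4.81 ± 0.50). Nr1h3, the oxysterol receptor LXR alpha, was lower as well (-2.29 ± 0.23).

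Glucose transporters and glycolysis showed 6 of 20 genes higher (2 without litter 93) and 2 lower. The lower count was 0 without the litter term, litter 93, litter 108, Ly6Chi replicate 1 or 4 or Ly6Clo replicate 2, and 1 without Ly6Chi replicate 2 or 5. The hexose transporter Slc2a6 had 79.2, 76.2, 44.5, 67.0 and 83.3 CPM against 3.95, 1.65, 14.2, 3.97 and 3.95 CPM (3.85 ± 0.40), and the lactate exporter Slc16a3 was higher by 2.49 ± 0.38. Of 31 respiratory chain genes 0 were higher (2 without Ly6Clo replicate 5) and 7 lower, with a median of -0.04 that was 0.12 in litter 100 alone. The lower count was 2 to 4 without any 1 of the libraries of litters 93 and 108, with 2 without Ly6Chi replicate 1, and it was 0 without the litter term or litter 93 and 1 without litter 108.

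**Figure D4:**
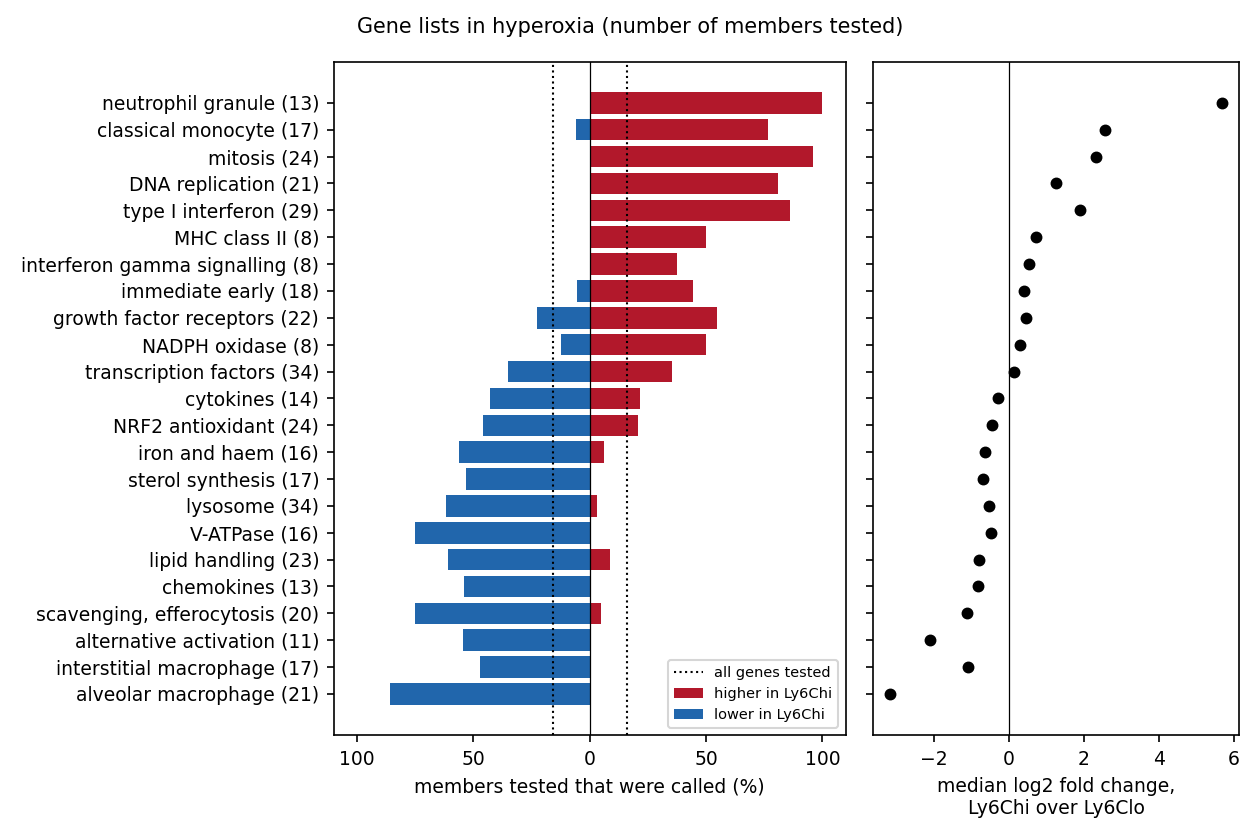
Left, percentage of the tested members of 23 gene lists that were called higher (red) or lower (blue) in Ly6Chi, with the number tested in brackets and dotted lines at the shares over all genes tested, 16.0% and 15.7%; right, the median log2 fold change of each list. Granule, classical monocyte, cell cycle and type I interferon lists lie on the Ly6Chi side and macrophage, lysosome and lipid lists on the Ly6Clo side. The rest of the 51 lists are not drawn. They include the non-classical monocyte list, with 8 of 15 higher and 3 lower, and lists with a median near 0, such as p53 targets (-0.04).

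On the Ly6Clo side alveolar macrophage markers led. Of 21 tested 18 were lower in Ly6Chi and 0 higher, with a median of -3.17. Marco, a scavenger receptor for particles, had 10.1, 4.44, 0, 0.459 and 0 CPM in Ly6Chi and 97.2, 90.9, 260, 146 and 220 CPM in Ly6Clo (-5.65 ± 0.78, and -7.00 without Ly6Chi replicate 1). Ear1, an eosinophil-associated ribonuclease, had 3.93, 0.635, 0, 1.38 and 1.38 CPM against 45.0, 49.6, 34.8, 45.2 and 29.3 CPM (-4.70 ± 0.44). No library of either population crossed over, and the highest Ly6Chi values of both genes were in replicate 1. Means in the hyperoxic alveolar macrophage sort were higher still, 402 CPM for Marco and 171 CPM for Ear1. Car4, a carbonic anhydrase, was uneven in Ly6Chi, with 88.2, 9.52, 19.6, 97.7 and 6.91 CPM against 343, 396, 266, 378 and 576 CPM (-3.17 ± 0.72, edgeR adjusted p = 0.013), beside a mean of 919 CPM in that sort. The summed level of the list was 1623 to 2062 CPM in Ly6Chi and 6846 to 8248 CPM in Ly6Clo. The part of alveolar macrophages within the Ly6Clo gate was not tested.

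Several genes nearly confined to Ly6Clo in these 10 libraries lie outside the macrophage marker lists. Flvcr2, a membrane transporter, had 0.561, 1.90, 0, 0.459 and 0 CPM against 50.6, 43, 33.3, 61.1 and 71.6 CPM (-6.39 ± 0.49). Gal, the neuropeptide galanin, had 2.81, 1.27, 2.07, 0 and 3.68 CPM against 100, 97.5, 157, 98.8 and 37.2 CPM (-5.51 ± 0.49). Slc6a4, the serotonin transporter, had 0, 0.635, 0, 3.67 and 1.38 CPM against 71.1, 62.0, 57.0, 98.3 and 22 CPM (-5.57 ± 0.66). All 3 were present in every Ly6Clo library, lowest in replicate 5 for Gal and Slc6a4. Adarb1, the RNA-editing enzyme ADAR2, was lower by a log2 of -5.80 ± 0.48, Trim29 by -5.66 ± 0.51 and Dst, the linker protein dystonin, by -5.14 ± 0.32. Fcrls, an Fc receptor-like gene of tissue macrophages, had 5.62, 7.62, 0, 4.13 and 9.21 CPM against 231, 246, 30.1, 283 and 19.2 CPM (-4.92 ± 0.79, and -4.02 without Ly6Clo replicate 4), with replicates 3 and 5 far below the other Ly6Clo libraries. Fcrls was not called by limma voom (adjusted p = 0.0812).

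Interstitial macrophage markers were lower in Ly6Chi in 8 of 17 tested and higher in 0 (median -1.08). The lower count was 3 without litter 93, Ly6Chi replicate 1 or 2 or Ly6Clo replicate 1, 4 without Ly6Clo replicate 2 or 4, and 5 without litter 100 or either of its libraries. Mrc1, the mannose receptor CD206, had 19.6, 20.3, 0, 19.3 and 12.4 CPM against 689, 684, 412, 568 and 190 CPM (-5.13 ± 0.50). Ms4a7 had 35.4, 38.7, 54.8, 24.3 and 68.6 CPM against 244, 294, 241, 220 and 96.4 CPM (-2.32 ± 0.33). In both, Ly6Clo replicate 5 was the lowest of its group and still above every Ly6Chi library. Of 11 alternative activation genes 6 were lower and 0 higher, with a median of -2.11, among them Tgm2, transglutaminase 2 (-3.15 ± 0.47).

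Receptors for particles and dying cells were lower in Ly6Chi in 15 of 20 tested (9 without litter 93) and higher in 1 (2 without Ly6Clo replicate 3 and 0 without litter 93). Axl, which binds the bridging protein GAS6 on apoptotic cells, had 102, 108, 148, 84.8 and 150 CPM against 604, 680, 512, 633 and 541 CPM (-2.38 ± 0.16). Mertk, its relative, had 56.1, 26.7, 24.8, 24.3 and 51.6 CPM against 178, 178, 217, 217 and 319 CPM (-2.61 ± 0.26). Olr1, the receptor for oxidised low-density lipoprotein, had 16.3, 21.6, 55.9, 39.9 and 46.5 CPM against 322, 259, 499, 318 and 500 CPM (-3.50 ± 0.19). All 3 were present in Ly6Chi, several-fold below every Ly6Clo library.

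Lipid uptake, storage and export followed, with 14 of 23 lower in Ly6Chi and 2 higher (0 higher without the litter term and 1 without litter 108), and a median of -0.80. Lpl, lipoprotein lipase, had 124, 78.7, 117, 110 and 74.6 CPM against 978, 836, 1132, 864 and 730 CPM (-3.19 ± 0.16). The fatty acid receptor Cd36 had 291, 69.8, 73.4, 332 and 64.5 CPM against 1034, 1071, 482, 982 and 1112 CPM (-2.53 ± 0.52). Ly6Chi replicates 1 and 4, the high ones for Cd36, were also the high ones for Car4. The cholesterol exporters Abca1 (-2.56 ± 0.22) and Abcg1 (-2.56 ± 0.17) were lower to the same extent. Abcg1 had 45.5, 52.7, 76.5, 31.6 and 65.4 CPM against 266, 279, 388, 259 and 350 CPM. Plin2, the coat protein of lipid droplets, was abundant in both, with 838, 780, 784, 722 and 879 CPM against 1280, 1416, 1186, 1124 and 1500 CPM (-0.73 ± 0.09). Sterol synthesis genes were lower in 9 of 17 (3 without litter 108) and higher in 0, among them Sqle, squalene epoxidase (-1.47 ± 0.29).

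Lysosomal genes were lower in Ly6Chi in 21 of 34 (12 without the litter term or litter 93), with a median of -0.52. They were higher in 1, and in 0 without Ly6Chi replicate 1, 2, 4 or 5 or Ly6Clo replicate 1 or 5. Ctsd, cathepsin D, had 656, 699, 404, 543 and 814 CPM against 1581, 1851, 1102, 1308 and 1728 CPM (-1.32 ± 0.11). Npc1, which moves cholesterol out of the lysosome, had 71.9, 82.5, 86.9, 83.9 and 122 CPM against 215, 295, 269, 319 and 362 CPM (-1.74 ± 0.13). Both genes were low in all 5 Ly6Chi libraries. Ctsk, cathepsin K, had the widest gap of the list (-3.49 ± 0.66), and the lysosomal lipase Lipa was lower by a log2 of -1.56 ± 0.19. The proton pump that acidifies the lysosome was lower in 12 of 16 subunit genes and higher in 0 (median -0.47), and in 5 without the litter term, 4 without litter 93 and 7 without litter 108. Its widest gap was in Atp6v0d2, a membrane-sector subunit of macrophages and osteoclasts, with 102, 53.9, 13.4, 51.8 and 92.1 CPM against 922, 956, 597, 765 and 1198 CPM (-3.94 ± 0.30). Atp6v0a1 (-1.95 ± 0.19) and Atp6v1c1 (-1.33 ± 0.11) came next, and the other 9 lower subunits differed less.

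Proteases and growth factors acting on tissue also separated the populations. Mmp12, macrophage elastase, had 0, 1.90, 0, 2.29 and 6.45 CPM in Ly6Chi and 293, 199, 188, 287 and 147 CPM in Ly6Clo (-6.56 ± 0.52). Its mean was 82.6 CPM in the hyperoxic alveolar macrophage sort and 582 CPM in the dendritic cell sort. Mmp19 had 1.12, 4.44, 6.21, 10.1 and 11.5 CPM against 102, 86.8, 88.7, 59.6 and 145 CPM (-3.93 ± 0.39). Mmp8, neutrophil collagenase, ran the other way (2.0 ± 0.34). Igf1, insulin-like growth factor 1, had 6.74, 8.25, 23.8, 6.88 and 16.1 CPM against 175, 154, 99.8, 155 and 54.1 CPM (-3.48 ± 0.44). Gdf15, a stress-induced member of the TGF-beta family, had 7.30, 5.08, 2.07, 6.42 and 5.53 CPM against 130, 121, 50.7, 101 and 38.9 CPM (-4.02 ± 0.33). Both growth factors were lowest in replicates 3 and 5 among the Ly6Clo libraries. Of 12 secreted growth factors tested 4 were lower in Ly6Chi and 0 higher (1 higher without litter 100 or either of its libraries), the others being Vegfb (-2.81 ± 0.45) and Nrg4 (-2.38 ± 0.22).

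Chemokine ligands were lower in Ly6Chi in 7 of 13 tested (4 without litter 93) and higher in 0. Cxcl14 had 0 counts in 4 Ly6Chi libraries and 0.461 CPM in replicate 5, against 30, 33.1, 79.2, 26.8 and 10.2 CPM in Ly6Clo, a ratio of counts of 259 (95% counting interval 45.9 to 10270). Ccl6 was abundant in both, with 855, 891, 1286, 730 and 802 CPM against 1508, 1580, 2121, 1082 and 1310 CPM (-0.76 ± 0.07). Its litter 100 libraries were the highest of each population, so the ranges overlap while each litter shows the gap. Inflammatory cytokines were split, 3 of 14 higher and 6 lower (3 lower without the litter term or litter 93). Il1rn, the interleukin 1 receptor antagonist, had 103, 69.2, 366, 116 and 340 CPM against 559, 560, 1169, 628 and 950 CPM (-2.15 ± 0.31), and Il1b itself was lower (-1.0 ± 0.17). Il18 had 118, 105, 223, 81.6 and 85.6 CPM against 394, 341, 317, 317 and 233 CPM (-1.52 ± 0.19). Higher in Ly6Chi were Il15, a survival factor of lymphocytes, with 96.0, 108, 91.0, 105 and 98.1 CPM against 37.9, 21.5, 9.50, 21.9 and 14.7 CPM (2.23 ± 0.25), and Tnfsf13b, the B cell factor BAFF (3.12 ± 0.42). In the eicosanoid list 3 of 16 were higher and 6 lower (1 and 2 without litter 93). Tbxas1, thromboxane synthase, had 27.5, 31.1, 25.9, 29.4 and 30.4 CPM against 277, 241, 171, 236 and 155 CPM (-2.92 ± 0.17), and the leukotriene C4 synthase Ltc4s was lower by a log2 of -3.39 ± 0.53.

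Antioxidant genes under NRF2, a transcription factor activated by oxidants, were lower in Ly6Chi in 11 of 24 (5 without the litter term) and higher in 5 (median -0.45). The higher count was 3 without the litter term, Ly6Chi replicate 1, 2 or 4 or Ly6Clo replicate 2 or 5, and 2 without litter 93 or 108. Srxn1, sulfiredoxin, had 21.9, 28.6, 26.9, 14.2 and 36.4 CPM against 46.6, 57.0, 57.0, 77.5 and 120 CPM (-1.48 ± 0.28). Txnrd1, thioredoxin reductase, had 91.5, 61.6, 81.7, 89.4 and 97.6 CPM against 127, 142, 233, 160 and 256 CPM (-1.12 ± 0.17). Neither overlapped, and Gclm, a subunit of the enzyme that starts glutathione synthesis, was lower by the same log2 value (-1.12 ± 0.17). Gsr, which regenerates glutathione, was higher instead, with 722, 801, 468, 768 and 773 CPM against 417, 425, 241, 539 and 471 CPM (0.74 ± 0.10). Iron and haem genes were lower in 9 of 16 (4 without the litter term and 3 without litter 93) and higher in 1 (2 without Ly6Clo replicate 5). Slc40a1, the iron exporter ferroportin, had 15.7, 14.6, 1.03, 12.8 and 7.83 CPM against 190, 110, 23.8, 169 and 35.5 CPM (-3.40 ± 0.45), and the 1 higher was Lcn2, the siderophore-binding lipocalin 2, also a granule protein (3.98 ± 0.60). Phagocyte oxidase subunits were higher in 4 of 8 and lower in 1 (2 and 0 without the litter term or litter 93).

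MHC class II genes were higher in Ly6Chi in 4 of 8 tested (2 without the litter term or litter 93) and lower in 0, with a median of 0.73. The most abundant members, H2-DMa (-0.24) and Cd74 (0.44), were not called. H2-Aa had 110, 112, 196, 88.5 and 97.2 CPM against 27.7, 49.6, 53.9, 45.2 and 9.02 CPM (1.65 ± 0.33). H2-Eb1 had 76.9, 76.8, 106, 58.2 and 47.9 CPM against 14.2, 24.0, 19.0, 22.8 and 6.76 CPM (1.97 ± 0.30), and H2-Ab1 had 174, 194, 254, 153 and 171 CPM against 83.8, 154, 112, 74.0 and 33.3 CPM (1.08 ± 0.25). Both chains of the I-A molecule were lowest in Ly6Clo replicate 5. H2-Ab1, among the 4 called, was listed with the gate genes when genes to name were chosen. The part of the sort in the MHC class II difference was not tested. The mean level of the list (log2 CPM) was 6.90 ± 0.10 SD in Ly6Chi and 5.99 ± 0.61 in Ly6Clo (n = 5 each), against 6.15 and 6.50 in normoxia, where the median fold was -0.33. In the edgeR test of the difference between oxygen conditions 0 of its genes were called. An unadjusted p under 0.05 in that test was met by 6 of 8, beside 447 of 11721 over all genes.

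B cell markers differed between the populations in the same direction as the MHC class II genes, which B cells also make. Of 10 markers 5 passed the filter, and 4 were higher in Ly6Chi and 0 lower. The higher count was 2 without Ly6Chi replicate 1, 2 or 4 and 0 without litter 93. Cd79a, of the B cell receptor, had 92.6, 90.8, 85.8, 75.7 and 54.8 CPM against 7.90, 15.7, 3.17, 24.8 and 5.64 CPM (2.67 ± 0.42). Cd79b, its partner, had 289, 261, 143, 218 and 202 CPM against 118, 123, 23.8, 118 and 37.2 CPM (1.44 ± 0.29). The 2 populations did not overlap in either gene. The summed level of the list was 318.2 to 564.8 CPM in Ly6Chi and 43.97 to 187.7 CPM in Ly6Clo, Igll1 was at 0 in all 10 libraries, and the median fold of its tested genes in normoxia was 0.14. For the difference between oxygen conditions 0 of these genes were called by edgeR, and 3 of 5 had an unadjusted p under 0.05. Dendritic cell markers were higher in 3 of 9 tested (in 1 without litter 108 or Ly6Chi replicate 4 or 5, and in 0 without the litter term) and lower in 0, with a summed level of 264.8 to 677.5 CPM in Ly6Chi and 164.6 to 297.8 CPM in Ly6Clo, and Cd207 was at 0 in all 10 libraries. The part of B cells or dendritic cells in the MHC class II difference was not tested. Epithelial markers, summed, had 191 to 2797 CPM in Ly6Chi and 221.6 to 2206 CPM in Ly6Clo, endothelial markers 35.54 to 527.4 and 179.2 to 576 CPM, and mesenchymal markers 58.39 to 389.9 and 11.84 to 168.3 CPM. Erythroid markers had 1.904 to 714.7 and 3.946 to 459.3 CPM, T and NK cell markers 5.712 to 664 and 37.2 to 451.4 CPM, and mast cell, eosinophil and platelet markers 0 to 173.6 and 6.335 to 329.9 CPM. The ranges of these 6 lists overlapped widely between the populations.

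**Figure D5:**
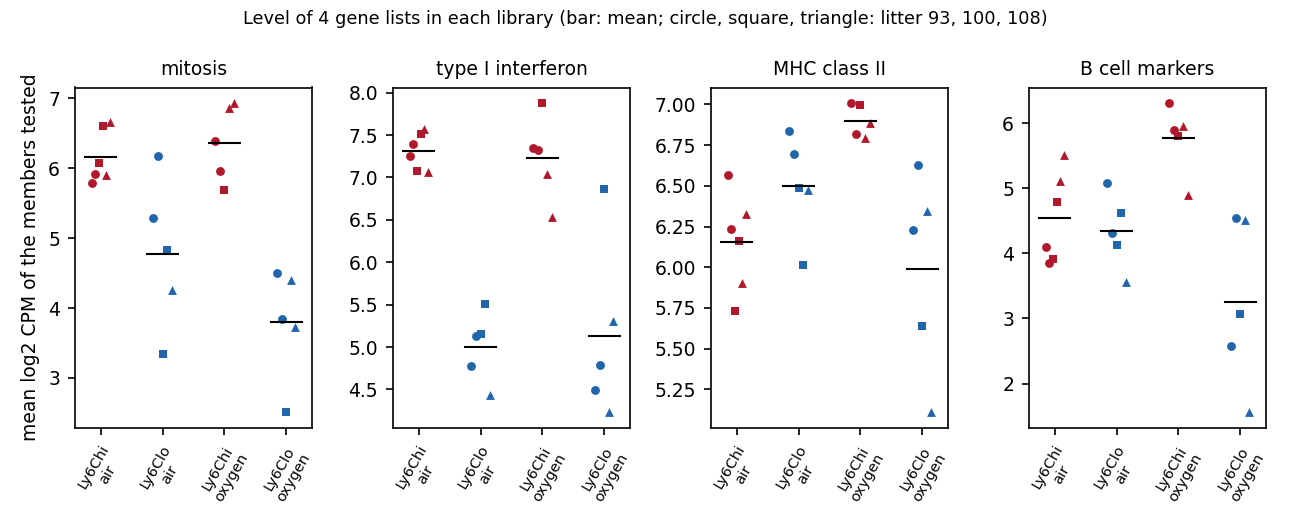
Mean log2 CPM (y axis) of the tested members of 4 gene lists in each Ly6Chi (red) and Ly6Clo (blue) library in air and in oxygen, with a bar at the group mean and marker shape for the litter. In oxygen the MHC class II and B cell lists are both higher in Ly6Chi, while in air their ranges overlap between the populations. In the test of the difference between oxygen conditions 0 genes were called.

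The same comparison in the 11 normoxic libraries called 1811 of 10950 genes higher (16.5%) and 1569 lower (14.3%) in Ly6Chi. Whether the difference between populations depends on oxygen was tested in all 21 libraries over 11721 genes. Of these 0 (0%) were called by edgeR's quasi-likelihood test, 447 had an unadjusted p under 0.05, DESeq2 called 4 and limma voom called 0. Simulated 2-fold differences of this kind were recovered for 20 of 100 genes and 4-fold ones for 77 of 100, and 5 unchanged genes were called. Most simulated 2-fold differences were thus missed with this number of libraries. The simulated counts held no litter effect, so they do not give the share missed in the real data.

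The 5 genes with the smallest p in that test are given as values. Dusp2, a nuclear phosphatase of activated leukocytes, had 94.3, 125, 59.0, 72.5 and 57.6 CPM against 7.90, 12.4, 9.50, 5.46 and 5.07 CPM in hyperoxia. Its log2 fold change was 3.35 ± 0.24 in hyperoxia and 1.24 ± 0.27 in normoxia, a difference of 2.19 ± 0.37 (edgeR adjusted p = 0.0626). Versican showed the reverse order: Vcan had 120, 116, 406, 140 and 158 CPM against 19.0, 13.2, 36.4, 18.9 and 19.2 CPM in hyperoxia, with 2.99 ± 0.16 there and 5.04 ± 0.25 in normoxia (difference -2.08 ± 0.37, edgeR adjusted p = 0.0626). Gpr18, a G protein-coupled receptor, had log2 fold changes of 3.48 ± 0.30 and 1.41 in hyperoxia and normoxia. For Ltb, lymphotoxin beta, which B cells also express, they were 2.86 ± 0.41 and 0.33. Nkg7, a granule gene of cytotoxic lymphocytes, was too low to test within hyperoxia, with 0, 0, 226, 7.80 and 47.9 CPM against 0, 1.65, 1.58, 8.44 and 5.64 CPM.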

How the data were processed

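The authors deposited raw counts per gene, as whole numbers without normalization, for 43 libraries. TopHat, HTSeq 0.4.1, FastQC, Picard, SAMtools and build NCBIM37 are named in the submitters' processing notes; roles, annotation release and strand setting are not given in the sources used here. Symbols of 32919 of 37991 genes came from GENCODE M21 by identifier. Genes without one hold 0.828% of counts and were tested but not named.

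Genes kept by edgeR filterByExpr (minimum count 10, minimum total 15) were scaled by TMM and tested in edgeR 4.0.16 (R 4.3.3) by robust quasi-likelihood F tests with litter as an additive term. The threshold was a Benjamini-Hochberg p of 0.05 over all genes tested. Fold changes used a prior count of 0.125, and log2 CPM a prior count of 1. limma 3.58.1 (voom) and DESeq2 1.42.0 served as alternatives. On simulated data without a litter effect 53 of 100 genes changed 2-fold and 92 of 100 changed 4-fold were recovered, and 9 unchanged genes were called. No libraries of a group agreed within sampling noise (lowest chi-square per gene 3.41).

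The comparison, its genes and the 51 lists were chosen with earlier results of these data known. Named genes are gate genes and markers, the 12 non-overlapping called genes of at least 50 CPM with the largest fold in each direction, the 5 most abundant of these, up to 6 called and the most abundant members of each list, the printed promoters, and the 5 smallest p of the oxygen test. Cxcl9, Cxcl10, Ifng and Mki67 were added after their values were seen. Some genes that the rule gives are not reported here. Replicate numbers follow the order of deposit, so they were not used to pair libraries, although same-numbered libraries may share a pup. Reads carry no molecular identifiers, and abundant short transcripts may be limited (highest count per exonic base 1.73). A correction with an assumed limit of 2 counts per exonic base raised 20 tested genes by over 1.5 times, among them Ctsd, Ccl6 and S100a9.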

Additional observations from a re-analysis of the deposited data

Results flagged for a closer look

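In 10 of 104 groups of 5 libraries 1 library stood apart by Dixon's criterion at 95%, each time in the mean level of a gene list. Library totals and numbers of genes detected were also among the 104. Chance alone meets the criterion in about 1 independent group in 20, but these groups share libraries and genes. The values are mean log2 CPM. Ly6Clo replicate 5 was low for classical monocyte markers (5.25, the other 4 at 6.26 to 6.63), non-classical monocyte markers (5.19, others 6.58 to 6.92) and integrins and adhesion (6.57, others 6.86 to 6.93). Ly6Clo replicate 1 was low for Toll-like receptors (6.30, others 6.44 to 6.50) and for hypoxia genes (5.69, others 5.73). Ly6Clo replicate 4 was low for matrix genes (6.53, others 6.92 to 7.07). Ly6Chi replicate 3, of litter 100, was low for interstitial macrophage markers (4.99, others 5.49 to 5.62) and p53 targets (4.88, others 5.40 to 5.61). Ly6Chi replicate 1 was high for alveolar macrophage markers (5.0, others 3.90 to 4.19), and Ly6Chi replicate 5 for eicosanoid genes (6.69, others 6.10 to 6.24).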

How the results depend on the processing

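Of the 3373 calls, 0 changed sign under any alternative with a test, and 161 had the opposite sign in litter 100 alone. Litter is the replicate block of the main comparison, and without the replicate block 1792 genes were called, 884 higher and 908 lower. Without litter 93 the numbers were 1361, 666 and 695, and without litter 108 they were 2108, 1059 and 1049. Leaving out 1 library at a time gave 2841 to 3513 calls, and the other scalings, tests and filters 2957 to 3746. Upper-quartile scaling called 1512 higher and 1824 lower, 45.3% higher against 50.5%. Of the 114 called genes named here 88 stayed called in every alternative with a test. The calls of 20 ended without litter 93, of 8 without the litter term, of 5 without litter 108 and of 0 without litter 100. The call of Fcrls also ended in limma voom. A single left-out library ended the call of Cd274 alone among the 114. It also moved the folds of other genes by over 1.5 times, all of which stayed called. Without Ly6Clo replicate 4 Camp was at 8.74, Ngp at 8.92, Cebpe at 5.99 and Cd79a at 3.32 (log2), and without replicate 1 Plk1 was at 4.39. Without the Ly6Clo or Ly6Chi library of litter 100 Mefv was at 8.34 or 8.33 and Adarb1 at -6.40. Without Ly6Chi replicate 5 Ctsk was at -4.27, Cxcl14 at -8.69, Egr2 at -5.67, Gal at -6.12, Ltc4s at -4.21 and Mmp12 at -7.46, without replicate 2 Flvcr2 at -7.31, and without replicate 4 Slc6a4 at -6.56 and Car4 at -3.83 (-3.76 without replicate 1). For the difference between oxygen conditions DESeq2 called 4 genes (3 positive, 1 negative), no filter 205 (136 and 69), a minimum count of 30 gave 2 (1 and 1), leaving out litter 100 gave 1, and single libraries left out gave 0 to 2 (0 to 1 in each direction). With each litter alone, an alternative added after seeing the data, several list medians were opposite in sign to the pooled value. Among them, litter 100 gave -0.05 for Toll-like receptor, -0.01 for NF-kB, 0.04 for Fc receptor and 0.15 for chemoattractant receptor genes. Litter 108 gave -0.02 for NF-kB, 0.04 for integrin, -0.20 for MHC class I, 0.22 for complement and 0.32 for chemoattractant receptor genes. Single libraries left out gave medians of -0.12 to 0.07 for the hypoxia list and -0.39 to 0.11 for the C-type lectin list; the cause was not tested. The lowest total, 647844 counts, is that of Ly6Clo replicate 3, without which 3507 genes were called; the part of depth was not tested.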
